A study of Mus musculus with 2 samples.

Results

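Genes of the Wnt signalling pathway were compared between the uterus of a Mettl14 f/f library and that of a Mettl14 d/d library on gestational day 4. They were chosen by gene symbol and cover the Wnt ligands, the proteins that release them, their receptors and co-receptors, R-spondins and their receptors, secreted antagonists, cytoplasmic transducers and the TCF/LEF transcription factors. The symbol rule found 72 of the 55363 genes in the files, each with 1 gene ID. The rule reads the start of a symbol, so it also took 3 non-coding transcripts named after a neighbouring gene, Fzd10os, Notumos and Rspo4os.

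RNA came from whole uterus of pregnant mice that were 6 to 8 weeks old when mated with fertile males, with the day of the plug counted as the first day of gestation. Both groups carry Mettl14 alleles written f/f (in the usual notation floxed, the control) and d/d (deleted). The Cre driver behind the deletion, the strain and the number of animals behind each library are not stated in the labels. Whole uterus holds lumen and gland epithelium, stroma, muscle, vessels and immune cells, and in such bulk RNA fewer cells of a type and less RNA per cell cannot be told apart. With 1 library per genotype, values carry no replicate error, no test was possible, and "higher" and "lower" compare these libraries only.

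Mettl14, a subunit of the methyltransferase that places N6-methyladenosine (m6A) in RNA, was 13.6 FPKM in f/f against 3.21 FPKM in d/d, 4.25-fold lower. FPKM counts fragments per kilobase of transcript and corrects for the number of fragments mapped in each library. The steps between low FPKM values put the depth near 19650000 fragments for f/f and near 22850000 for d/d. At that depth 1 FPKM over a transcript of 2000 nt stands for about 33.4 fragments for the f/f library and 39.3 for d/d. The 8 uterine markers, among them the hormone receptor genes Pgr and Esr1 and the homeobox genes Hoxa10 and Hoxa11, all passed 1 FPKM. Their summed level was 846 FPKM in f/f against 427 in d/d. By the 2-fold rule used below, 3 were lower, 1 higher and 4 neither, beside 8.28% lower and 10.2% higher among all genes. The lower markers were Hoxa10 (5.59-fold), Hoxa11 (4.78-fold) and Wfdc1 (5.34-fold).

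Wnt proteins are secreted lipid-modified ligands that bind Frizzled receptors. With an Lrp5 or Lrp6 co-receptor they stop the breakdown of beta-catenin, which then enters the nucleus and switches on genes together with TCF/LEF factors. Other Wnt signals act without beta-catenin and steer cell shape and polarity. In the mouse uterus Wnt signals are known for shaping the glands and the epithelium, and for their part in embryo attachment and the decidual change of the stroma.

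Many Wnt pathway genes differed between the libraries by at least 2-fold, in both directions. Of the 72 genes, 53 reached 1 FPKM in one library or in both, and 26 of these 53 (49.1%) passed the 2-fold rule where 18.4% of all genes at that level did. Of the 53, 16 were lower in d/d (30.2%), 10 higher (18.9%) and 27 neither, on the log2(FPKM + 1) scale that is used for every log2 ratio here. Among all 16263 genes that reached 1 FPKM, 8.28% were lower and 10.2% higher by the same rule. The median log2 ratio of the 53 genes was -0.12, with quartiles of -1.32 and 0.64, against -0.01 with quartiles of -0.41 and 0.41 over all genes. The middle thus lay close to that of all genes while the spread was wider.

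A gene at 1 FPKM or more in only 1 library had to differ, and this held for 9 of the 53. Fzd3, Lgr5, Notum, Sfrp5, Wnt2b, Wnt6 and Wnt11 passed through f/f alone, and Dkkl1 and Lgr6 through d/d alone. Of the other 44, 11 were lower and 8 higher, against 5.78% lower and 7.93% higher among the 14370 genes at that level in both libraries. Their median log2 ratio was 0.07. By the 4-fold rule, 5 of the 53 were lower (Wnt11, Lef1, Sfrp2, Lgr5 and Sfrp4) and 2 higher (Lgr6 and Dkkl1), where 1.91% and 2.97% of all genes were.

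**Figure D1:**
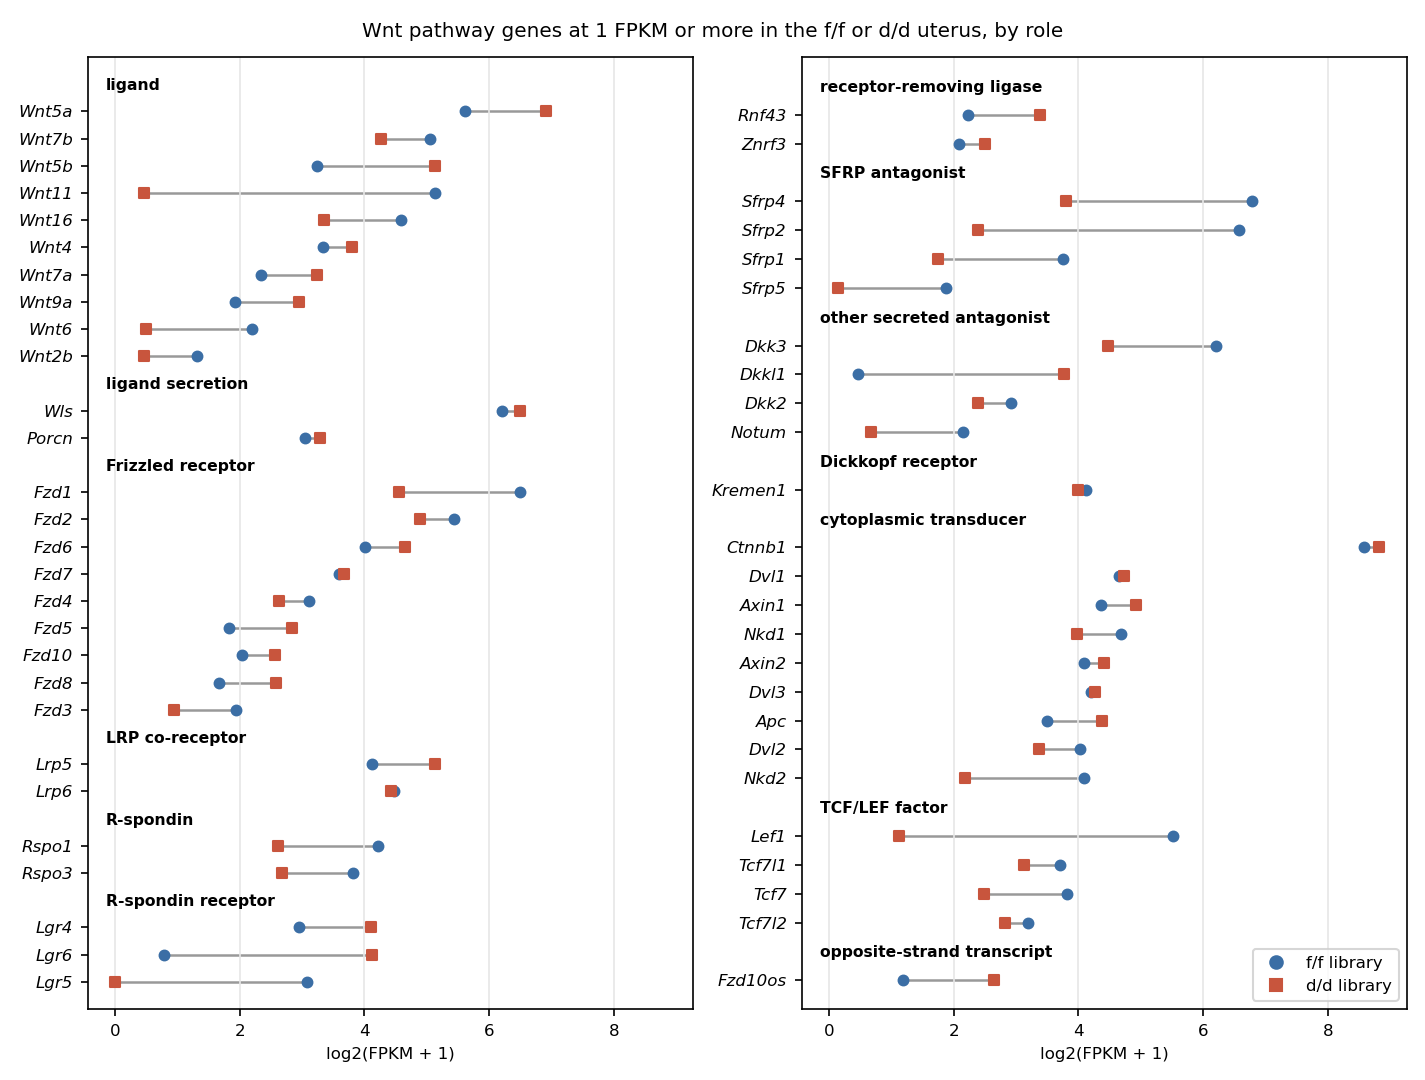
Level of each of the 53 Wnt pathway genes that reached 1 FPKM, by role, on the log2(FPKM + 1) axis. Circles are the f/f library, squares the d/d library, and a line joins the values of a gene; Wnt11, Lef1, Lgr5 and all SFRP genes lie far to the left in d/d, while Lgr6 and Dkkl1 lie far to the right.

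The start regions of 6 genes are shown. Of the 53 genes that reached 1 FPKM, 33 had a usable window, and 21 of these windows were free of annotated exons. The 6 genes have the 3 lowest and the 3 highest log2 ratios among these 21. Lef1, Lgr5, Sfrp4 and Dkkl1, which passed the 4-fold rule, were not among the 21, so the 6 are not the largest differences of the whole group. The windows are the 250 bases before the RefSeq start site (GRCm38.p6), 5′ to 3′ on the strand of the gene. Wnt11, Sfrp2 and Fzd1 were lower in d/d, and Lgr6, Wnt5b and Lgr4 higher. Capitals mark CTTTG or its reverse complement CAAAG, the core letters of the TCF/LEF binding motif.
Wnt11 (chr7:98834862-98835111, plus strand): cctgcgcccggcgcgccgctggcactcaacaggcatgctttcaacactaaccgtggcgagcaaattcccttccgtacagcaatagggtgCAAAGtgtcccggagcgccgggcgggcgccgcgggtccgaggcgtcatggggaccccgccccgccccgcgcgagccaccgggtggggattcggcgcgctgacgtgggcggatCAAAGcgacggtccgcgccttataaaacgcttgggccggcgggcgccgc
Sfrp2 (chr3:83766071-83766320, plus strand): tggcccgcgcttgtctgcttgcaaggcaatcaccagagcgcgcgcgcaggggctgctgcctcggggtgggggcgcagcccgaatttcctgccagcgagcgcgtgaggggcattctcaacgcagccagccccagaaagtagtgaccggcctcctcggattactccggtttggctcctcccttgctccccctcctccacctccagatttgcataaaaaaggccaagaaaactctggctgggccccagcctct
Fzd1 (chr5:4758217-4758466, minus strand): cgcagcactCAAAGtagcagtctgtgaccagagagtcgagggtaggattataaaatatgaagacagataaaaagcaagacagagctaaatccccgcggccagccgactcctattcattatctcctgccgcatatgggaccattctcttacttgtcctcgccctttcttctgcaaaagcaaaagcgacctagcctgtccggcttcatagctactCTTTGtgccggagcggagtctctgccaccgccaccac
Lgr6 (chr1:135105277-135105526, minus strand): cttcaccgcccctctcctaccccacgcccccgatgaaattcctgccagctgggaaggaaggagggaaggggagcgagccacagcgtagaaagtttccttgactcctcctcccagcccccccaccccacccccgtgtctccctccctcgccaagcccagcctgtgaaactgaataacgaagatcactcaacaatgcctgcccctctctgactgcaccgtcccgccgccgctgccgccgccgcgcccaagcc
Wnt5b (chr6:119544348-119544597, minus strand): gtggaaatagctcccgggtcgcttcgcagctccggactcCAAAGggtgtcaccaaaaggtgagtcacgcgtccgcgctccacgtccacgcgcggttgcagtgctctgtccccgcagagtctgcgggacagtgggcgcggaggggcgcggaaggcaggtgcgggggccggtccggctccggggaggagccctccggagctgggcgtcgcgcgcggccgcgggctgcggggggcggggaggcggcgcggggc
Lgr4 (chr2:109917397-109917646, plus strand): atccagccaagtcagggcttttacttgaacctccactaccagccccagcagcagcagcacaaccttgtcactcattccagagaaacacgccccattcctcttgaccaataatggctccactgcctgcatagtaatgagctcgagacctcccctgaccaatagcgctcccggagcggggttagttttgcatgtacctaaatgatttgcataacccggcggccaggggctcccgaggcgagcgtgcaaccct

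The core letters stood in Wnt11 with their first base 161 and 49 bases before the start, in Fzd1 at 241 and 37 bases, and in Wnt5b at 211 bases. No match stood in the windows of Sfrp2, Lgr6 and Lgr4. Of 27025 windows of this length, 1 for each gene symbol, 48.8% held a match on either strand, so that 1 match is common. The pathway genes with a window numbered 46, and 39.1% of them held a match, in windows with a median GC content of 68% against 52% over all windows. A match describes the letters and is no evidence of binding.

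Among the ligands, 3 were lower, 3 higher and 4 neither, out of 10 that reached 1 FPKM. The counts of this and the gene groups that follow, which hold few genes each, stand beside 8.28% lower and 10.2% higher among all genes. Wnt11, a ligand best known for signals that act without beta-catenin, was 34.2 FPKM in f/f against 0.374 FPKM in d/d, 91.4-fold lower (log2 ratio -4.68). Of 16263 genes, 34 had a ratio this low or lower. The d/d value rests on about 27.1 fragments and the f/f value on about 2117. Wnt11 (ENSMUSG00000015957) is annotated on the plus strand of chromosome 7 from 98835112 to 98855195.

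Wnt16 was 22.9 FPKM in f/f against 9.16 in d/d (log2 ratio -1.23). Wnt6 was 3.56 FPKM in f/f against 0.403 in d/d (-1.70), the latter on about 16.5 fragments. Together with Wnt11 these were the ligands that were at least 2-fold lower.

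The close relatives Wnt5a and Wnt5b were both higher in d/d. Wnt5a, a ligand of the beta-catenin-independent branch that is prominent in uterine stroma, was 48.1 FPKM in f/f against 119 in d/d (log2 ratio 1.29). Wnt5b was 8.41 FPKM in f/f against 34.0 in d/d (1.90). Wnt9a was 2.81 FPKM in f/f against 6.74 in d/d (1.02), just past the 2-fold rule. It was under that rule after 2 other scalings of the libraries, to a smaller common FPKM sum (0.97) and to equal upper quartiles (0.95). The FPKM sums were already near equal (1.281e+06 in f/f against 1.285e+06 in d/d). The value of 0.97 thus reflects mainly the greater weight of the added 1 on smaller values.

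The ligands that passed neither way include those best known in the uterus. Wnt7a, the ligand of the uterine epithelium that is needed for gland formation, was 4.09 FPKM in f/f against 8.43 in d/d (log2 ratio 0.89). Its near relative Wnt7b was 32.1 in f/f against 18.2 in d/d (-0.79), so the ratios of the pair differ in sign. Wnt4, which the stroma needs for decidual change, was 9.11 FPKM in f/f against 13.0 in d/d (0.47). Wnt2b was 1.48 FPKM in f/f against 0.384 in d/d (-0.84), which is 3.85-fold lower on the FPKM scale. Wnt2 missed the level of 1 FPKM by little, at 0.9997 in f/f on about 38.4 fragments, and was listed at 0 in d/d.

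Summed over its 19 genes, the ligand group was 168 FPKM in f/f against 210.05 in d/d, but its make-up differed. Wnt5a made up 28.6% of the sum in f/f against 56.8% in d/d, and Wnt5b 5.0% and 16.2%. Wnt11 went from 20.3% in f/f to 0.178% in d/d, Wnt16 from 13.6% to 4.36% and Wnt7b from 19.1% to 8.67%. The order of levels in f/f was Wnt5a, Wnt11, Wnt7b, Wnt16, Wnt4 and Wnt5b. In d/d it was Wnt5a, Wnt5b, Wnt7b, Wnt4, Wnt16 and Wnt7a. Shares within a library do not depend on the scaling between libraries.

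The remaining ligands were silent or nearly so. Wnt1, Wnt3, Wnt3a, Wnt8a and Wnt10a were listed at 0 in both libraries, and Wnt8b, Wnt9b and Wnt10b stayed at or below 0.204 FPKM. Of these silent ligands, 2 lie beside a ligand that reached 1 FPKM. Wnt10a, at 0 in both, starts 6193 bases after Wnt6 on chromosome 1, and Wnt3a, at 0 in both, lies 16175 bases from Wnt9a on chromosome 11. The genes that ready and carry Wnt proteins for release differed by less than 2-fold. Wls, the carrier, was 73.1 FPKM in f/f against 88.9 in d/d, and Porcn, the enzyme that adds the lipid, was 7.23 and 8.74.

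**Figure D2:**
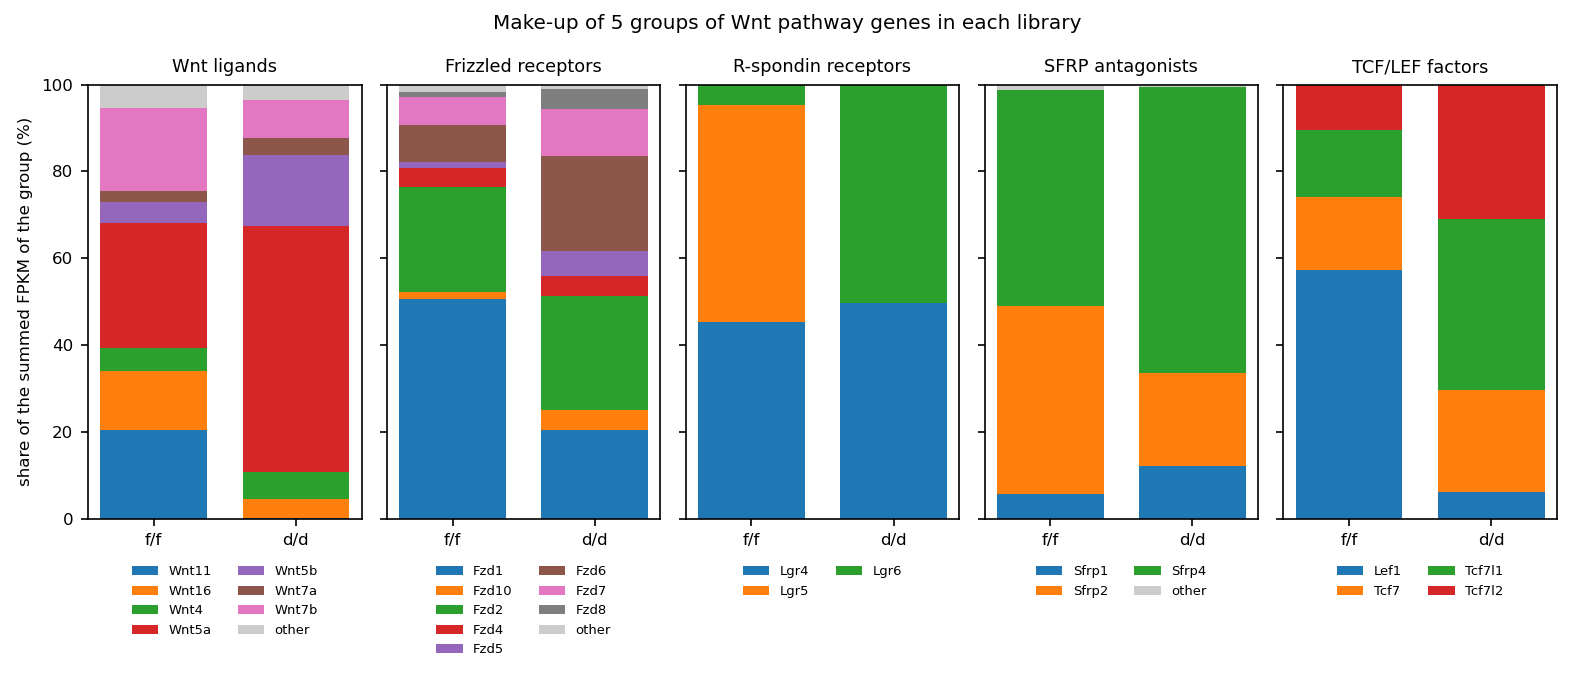
Make-up of the summed FPKM of 5 groups of genes in the f/f and the d/d library, in percent; grey holds the genes under 4% in both. The Wnt11 share of the ligands, the Lgr5 share of the R-spondin receptors and the Lef1 share of the TCF/LEF factors are large in f/f and small or absent in d/d.

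Of 9 Frizzled genes at 1 FPKM or more, 1 was lower, 1 higher and 7 neither, beside 8.28% lower and 10.2% higher among all genes. These counts are too near to the background to be read as a result about this group. Fzd1, the most abundant in f/f, was 88.8 FPKM there and 22.4 in d/d (log2 ratio -1.94). Fzd2 was 42.4 FPKM in f/f against 28.6 in d/d (-0.55) and was the most abundant Frizzled in d/d. Fzd1 made up 50.5% of the summed Frizzled FPKM in f/f against 20.5% in d/d, and the sum itself was 176 in f/f against 109 in d/d.

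Fzd5 was 2.54 FPKM in f/f against 6.17 in d/d (log2 ratio 1.02) and passed the rule narrowly, with values under it after the same 2 scalings (0.96 and 0.95). An opposite-strand gene overlaps 17.8% of its exons. Fzd6 was 15.0 FPKM in f/f against 24.0 in d/d (0.64), and Fzd7 was 11.1 and 11.7 (0.07). Fzd8 was 2.17 and 5.01 FPKM (0.92), which is 2.31-fold on the FPKM scale. Fzd10 was 3.10 and 4.95 FPKM (0.54), and Fzd4 was 7.66 and 5.21 (-0.48). Fzd3 was 2.85 FPKM in f/f against 0.930 in d/d (-0.996, just short of the rule), and Fzd9 was under 1 FPKM in both libraries.

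The LRP co-receptors split. Lrp5 was 16.3 FPKM in f/f against 33.9 in d/d (log2 ratio 1.01), again narrowly past the rule and short of it after those scalings (0.99 and 0.93). Lrp6 was 21.3 FPKM in f/f against 20.5 in d/d (-0.05).

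R-spondins strengthen Wnt signals by binding Lgr receptors and thereby keeping the ligases Znrf3 and Rnf43 from removing Frizzled from the cell surface. Both R-spondins that reached 1 FPKM were lower in d/d. Rspo1 was 17.5 FPKM in f/f against 5.13 in d/d (log2 ratio -1.60), and Rspo3 was 13.1 and 5.43 (-1.14). An opposite-strand gene overlaps 13.1% of the exon bases of Rspo3. Rspo2 and Rspo4 stayed at or below 0.124 FPKM.

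The Lgr receptors of R-spondins differed in make-up between the libraries. Lgr5, also a marker of stem cells in several epithelia, was 7.45 FPKM in f/f, on about 646 fragments, and was listed at 0 in d/d. Lgr6 was 0.717 FPKM in f/f against 16.4 in d/d, 22.9-fold higher (log2 ratio 3.34), a ratio reached or passed by 129 of 16263 genes. Lgr4 was 6.77 FPKM in f/f against 16.3 in d/d (1.15). In f/f the receptor sum was thus made up of Lgr5 with 49.9% and Lgr4 with 45.3%, and in d/d of Lgr6 with 50.3% and Lgr4 with 49.7%. Lgr5 (ENSMUSG00000020140) lies on chromosome 10, minus strand, from 115450311 to 115587780, and Lgr6 (ENSMUSG00000042793) on chromosome 1, minus strand, from 134983301 to 135105276.

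Rnf43 was 3.69 FPKM in f/f against 9.45 in d/d (log2 ratio 1.16), and Znrf3 was 3.23 and 4.66 (0.42). The summed R-spondin level per summed Lgr level was 2.06 in f/f against 0.327 in d/d.

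All 4 SFRP antagonists, secreted proteins with a Frizzled-like domain that bind Wnts outside the cell, were lower in d/d. Sfrp4, the most abundant in both libraries, was 109 FPKM in f/f against 13.0 in d/d, 8.38-fold lower (log2 ratio -2.97). Sfrp2 was 94.2 FPKM in f/f against 4.26 in d/d, 22.1-fold lower (-4.18). Sfrp1 was 12.5 and 2.37 FPKM (-1.999). Sfrp5 was 2.66 FPKM in f/f against 0.107 in d/d (-1.72), the latter on about 4 fragments. The sum over the group was 218 FPKM in f/f against 19.7 in d/d, 11.1-fold lower. Set against the ligand sum of the same library, it was 1.30 in f/f against 0.0939 in d/d. Sfrp2 (ENSMUSG00000027996) lies on the plus strand of chromosome 3 from 83766321 to 83774316 and shares 16.1% of its exon bases with an opposite-strand gene. Sfrp4 (ENSMUSG00000021319) lies on the plus strand of chromosome 13 from 19623104 to 19632994.

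The other secreted antagonists went both ways. Dkk3, a divergent Dickkopf protein, was 72.6 FPKM in f/f against 21.1 in d/d (log2 ratio -1.73). Notum, an enzyme that strips the lipid from Wnts, was 3.44 FPKM in f/f against 0.601 in d/d (-1.47). Its exons overlap opposite-strand genes over 38.1% of their length, and with strand not stated, reads of either strand cannot be assigned here. The overlapping Notumos was 0.284 FPKM in f/f against 0.0379 in d/d. Dkk2, which blocks the LRP co-receptors, was 6.52 and 4.26 FPKM (-0.51).

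Dkkl1, a Dickkopf-like protein best known from sperm, was the antagonist-group gene that was higher, with 0.383 FPKM in f/f against 12.7 in d/d, 33.1-fold (log2 ratio 3.31). The f/f value rests on about 6.4 fragments and the d/d value on about 252. Dkkl1 (ENSMUSG00000030792) lies on chromosome 7, minus strand, from 45207519 to 45212147. Dkk1, the classical LRP-blocking Dickkopf, was 0.0236 FPKM in f/f but listed at 0 in d/d, and Dkk4 and Wif1 were listed at 0 in both. Kremen1, a co-receptor of Dickkopf proteins, was 16.4 and 14.9 FPKM, and Kremen2 was under 1 FPKM in both.

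In the cytoplasmic core of the pathway 1 of 9 genes at 1 FPKM or more passed the rule, beside 18.4% of all genes, a share too near to the background to be read as a result about this group. Ctnnb1, which encodes beta-catenin, was the most abundant gene of the whole group at 381 FPKM in f/f against 454 in d/d (log2 ratio 0.25). The scaffolds Axin1 and Apc, which hold the complex that marks beta-catenin for breakdown, were 19.5 and 29.3 FPKM (0.56), and 10.3 and 19.7 (0.87). Dvl1, Dvl2 and Dvl3, which pass the signal on from Frizzled, had log2 ratios of 0.08, -0.65 and 0.07.

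Feedback genes that Wnt signals are known to switch on had ratios of both signs. Axin2, the most used readout of beta-catenin activity, was 16.03 FPKM in f/f against 20.2 in d/d (log2 ratio 0.32). Nkd1 was 24.8 and 14.8 FPKM (-0.71). Nkd2 was 16.1 FPKM in f/f against 3.53 in d/d (-1.92) and was the single cytoplasmic gene that was lower. Rnf43 and Znrf3, described above, and Lgr5 and Notum belong to the same class of feedback genes in textbook accounts. Of these 4, Rnf43 was higher, Znrf3 neither, and Lgr5 and Notum lower. Apc2 was under 1 FPKM in both libraries.

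All 4 TCF/LEF genes had ratios below 0, as did 50.8% of all genes. By the 2-fold rule 2 were lower, beside 8.28% of all genes, and 2 passed neither way. Lef1 was 44.6 FPKM in f/f against 1.19 in d/d, 37.6-fold lower (log2 ratio -4.38), with about 2788 and 86.8 fragments. Of the 16263 genes, 41 had a ratio this low or lower. Tcf7 was 13.0 FPKM in f/f against 4.62 in d/d (-1.32). Tcf7l1, the family member best known as a repressor, was 12.0 and 7.75 FPKM (-0.57), and Tcf7l2 was 8.09 and 6.05 (-0.37). Lef1 made up 57.4% of the summed TCF/LEF FPKM in f/f against 6.05% in d/d, where Tcf7l1 led with 39.5%. The sum was 77.7 FPKM in f/f against 19.6 in d/d. Lef1 (ENSMUSG00000027985) lies on the plus strand of chromosome 3 from 131110471 to 131224356, and 13.7% of its exon bases are shared with an opposite-strand gene.

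**Figure D3:**
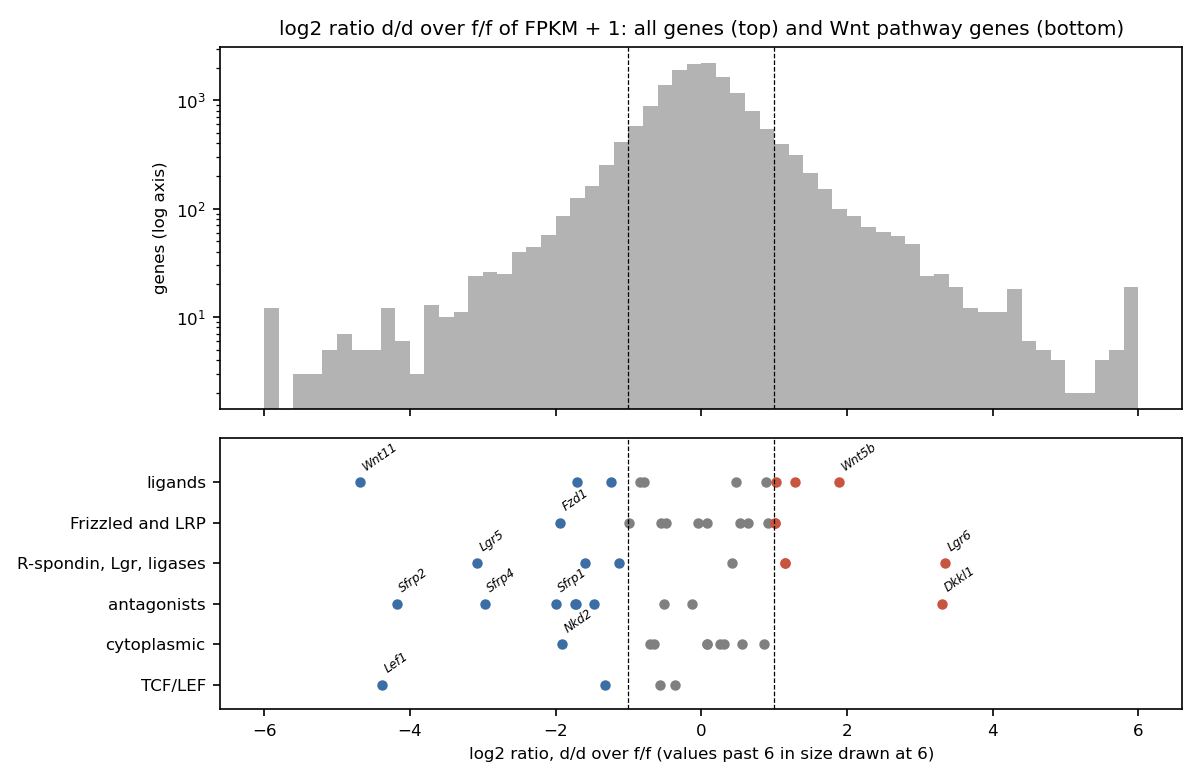
Distribution of the log2 ratio (d/d over f/f, FPKM + 1) over all 16263 genes, counted on a log axis, above the ratios of the Wnt pathway genes in 6 groups. Points in blue were at least 2-fold lower in d/d, in red at least 2-fold higher, and dashed lines mark the rule; Wnt11, Lef1 and Sfrp2 lie farthest to the left and Lgr6 and Dkkl1 farthest to the right, and the blue cytoplasmic point is Nkd2.

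Of the 3 transcripts named for an opposite strand, Fzd10os alone reached 1 FPKM, with 1.278 in f/f against 5.29 in d/d (log2 ratio 1.46). It starts 150 bases from Fzd10 on the other strand of chromosome 5 and shares no exon base with it. Rspo4os was 0.0508 FPKM in f/f but listed at 0 in d/d.

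Genes around this core, from 6 lists written from general knowledge with earlier results of these data known, give the wider pathway. Of their 135 genes at 1 FPKM or more, 17 were at least 2-fold higher and 19 lower, beside 10.2% and 8.28% of all genes. The share of higher genes is near the background, and the counts of the single lists, which hold few genes each, are given as descriptions against the same shares. In the list of the destruction complex and its regulators 1 of 21 genes was higher, none was lower, and the median log2 ratio was 0.11. The higher gene was Rnf146, the ligase that degrades axin after ADP-ribosylation, at 36.7 FPKM in f/f against 77.4 in d/d (1.06, and 0.97 with upper quartiles set equal). In the list of secretion and retromer genes none of 12 passed (median -0.08). Tmed2 was 225 and 232 FPKM, Snx3 152 and 124 (named after its values were seen) and Vps29 138 and 149.

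Nuclear cofactors of beta-catenin had 1 higher and 1 lower gene of 21, with a median log2 ratio of 0.05. Bcl9, the adaptor that ties beta-catenin to Pygopus, was 14.0 FPKM in f/f against 84.8 in d/d (2.52). Tle4, a Groucho-type corepressor of TCF/LEF factors, was 7.15 and 2.78 FPKM (-1.11).

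Extracellular modulators and co-receptors had 9 lower and 3 higher genes of 21 and a median log2 ratio of -0.67. Shisa2, which holds Frizzled back inside the cell, was 0.516 FPKM in f/f against 70.1 in d/d (5.55). Cthrc1, which favours Wnt signals without beta-catenin, was 58.9 FPKM in f/f against 5.68 in d/d (-3.17). Mest was 33.7 and 3.40 FPKM (-2.98). Ndp, the Frizzled-binding ligand norrin, was 15.1 and 1.36 FPKM (-2.77). Frzb, the SFRP relative whose symbol falls outside the rule, was 35.6 and 9.94 FPKM (-1.74; named after its values were seen). It was lower like the 4 SFRP genes.

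Receptors and polarity genes of the beta-catenin-independent branch had 5 higher and 5 lower genes of 26, with a median log2 ratio of -0.25. The Dishevelled-binding proteins Dact2 and Dact1 went opposite ways, at 4.67 and 30.5 FPKM (2.47) and at 17.2 and 3.66 (-1.96). The polarity cadherin Celsr2 was 2.29 FPKM in f/f against 14.3 in d/d (2.22). Ror1, a receptor for Wnt5a, was 6.69 and 1.09 FPKM (-1.88). Ror2, its sister, was 12.9 and 21.4 (0.68; named after its values were seen).

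Textbook target genes of Wnt signals had 7 higher and 4 lower genes of 34, and a median log2 ratio of 0.39. Fst, whose product follistatin binds activin, was 57.6 FPKM in f/f against 0.7996 in d/d (-5.03). Msx2, a homeobox gene, was 0.373 and 12.7 FPKM (3.32), and Mycn, a growth-promoting transcription factor, was 4.45 and 39.6 (2.89). The growth factor gene Fgf9 was 4.02 and 0.130 FPKM (-2.15). Of the well-known targets, Myc was 77.8 and 20.6 FPKM (-1.87), while Ccnd1, cyclin D1, was 56.2 and 60.9 (0.11) and passed neither way. Both were named after their values were seen. Many genes of this list answer to other signals as well.

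Markers of the cell types in the uterus moved between the same libraries. The marker counts from here on stand beside 8.28% lower and 10.2% higher among all genes. Of 12 epithelial markers 11 passed the rule as higher in d/d and none as lower, with a summed level of 442 FPKM in f/f against 2719 in d/d. Of 10 gland markers 6 were lower and 1 higher, with sums of 2297 and 39.4 FPKM, and Spink1, Prss28 and Ttr were listed at 0 in d/d. Of 11 stromal markers 5 were lower and none higher, with sums of 6132 and 4003 FPKM. The smooth muscle and endothelial sums were 5339 and 3521, and 476 and 236 FPKM, with 3 of 10 and 4 of 10 lower. The leukocyte sum was 526 and 1132 FPKM, most of it Lyz2 (334 and 886), with 5 of 10 measured markers higher and 2 lower. The lower ones were Ncr1 (40.5-fold) and Nkg7 (23.2-fold), and the higher ones included Cd3e (8.32-fold) and Cd3g (6.45-fold). The fat cell sum was 2.96 and 106 FPKM, with 4 of 4 measured markers higher. Of these, Adipoq, Cfd and Cidec reached 1 FPKM in d/d alone, so the filter fixed their direction. Fabp4 reached it in both libraries, at 2.67 FPKM in f/f against 28.9 in d/d, and Plin1 and Lep in neither.

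The SFRP sum was 11.1-fold lower, while the marker sums were 58.3-fold lower for gland, 4.40-fold for mesothelium, 2.02-fold for endothelium and 1.53-fold for stroma. The gland sum was carried by its most abundant genes, and the list was not uniform. In it Foxa2 was 1.43-fold lower, Sox9 1.34-fold higher and Lif 13.1-fold higher, beside the 6 of 10 that were lower by the rule. Within the stromal list the markers also differed, as Hand2, Hoxa11 and Pdgfra were 5.03-, 4.78- and 3.70-fold lower, while Dcn, at 911 FPKM in f/f against 811 in d/d, passed neither way. The epithelial sum was 6.15-fold higher, while the Wnt7a level was 2.06-fold higher. Oviduct and ciliated cell markers summed to 123 and 103 FPKM, most of it Tppp3, but Ovgp1 was 36.7-fold lower and Foxj1 11.3-fold higher (0.130 FPKM in f/f against 1.46 in d/d). Ovary markers summed to 22.3 and 33.5 FPKM, with 2 of 4 lower and 1 higher (median log2 ratio -0.65). The higher one was Foxl2, at 14.5 and 31.2 FPKM, while Star was 3.92 and 0.982 FPKM, Cyp11a1 2.32 FPKM and 0, and Hsd3b1 listed at 0 in both. Mesothelial markers summed to 88.3 and 20.1 FPKM, most of it Wt1 alone (84.3 and 17.5). Of the 3 that reached 1 FPKM, 2 were lower, and Msln passed neither way (0.833 FPKM in f/f against 2.13 in d/d). Red cell markers summed to 572 and 486 FPKM. The part that cell type levels played in the Wnt gene differences was not tested.

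**Figure D4:**
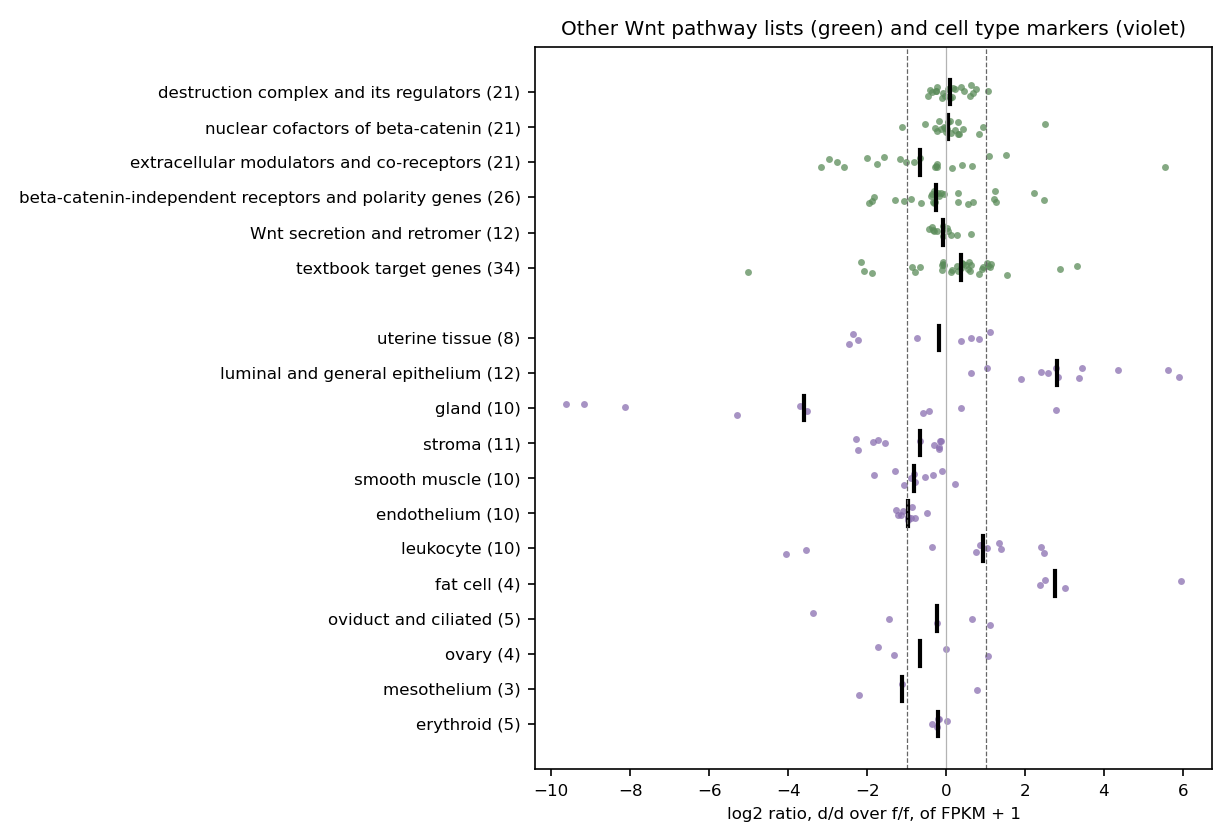
Log2 ratio (d/d over f/f, FPKM + 1) of each gene at 1 FPKM or more in the 6 other Wnt pathway lists and the 12 cell type marker lists, with the number of genes in parentheses. Points are genes, black bars list medians and dashed lines the 2-fold rule. Epithelial and fat cell markers lie to the right, 6 of 10 gland markers far to the left, and no secretion gene passes a dashed line.

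The m6A writer prefers the letters GGACT within its wider motif, and their density was counted in the longest annotated coding transcript of each gene (GENCODE M21), since Mettl14 is part of that writer. The 9 coding genes that were higher in d/d held a median of 1.69 matches per kb, the 16 lower genes 0.814 and the 27 others 1.17. Over all 13755 coding genes at 1 FPKM or more the median was 1.05, with 1.13 for the higher and 1.07 for the lower ones. Lrp5 had the highest density of the group with 17 matches in 5161 nt, while Sfrp2, Rspo1 and Porcn had none. Wnt11 had 6 in 3451 nt and Lef1 had 1 in 3482 nt, so the most strongly lower genes lay on both sides of the median. These are letters in a sequence; m6A itself was not analysed here.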

How the data were processed

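RNA-seq of whole uterus gave 2 libraries, 1 per genotype. Per the submitters' processing notes, the authors used HISAT2 2.2.1 and Cufflinks 2.2.1 with mm10, and deposited FPKM values per gene. Annotation release and strandedness are not stated there. Cufflinks splits fragments between overlapping genes and near copies, so such values are estimates. Other annotated genes overlap 10% or more of the exon bases of 8 Wnt pathway genes. These are Fzd5, Rspo3, Sfrp2, Notum, Notumos, Ctnnb1, Dvl2 and Lef1. Rows that share a symbol (120 beyond the first) were summed to 55363 genes.

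Log2 ratios (d/d over f/f) were taken on FPKM + 1, which understates changes of low genes, over genes at 1 FPKM or more in either library, with a 2-fold rule. Depth came from FPKM times transcript length (less 300 nt in f/f, 280 nt in d/d) falling on whole numbers: of low values, 89.0% and 86.4% lay within 0.1 of one. Fragment numbers use the longest coding transcript and are approximate.

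The Wnt genes and lists were chosen with earlier results of these data known. All Wnt genes at 1 FPKM or more are named, and from each pathway list up to 4 past the rule, or the 2 most abundant. The older symbols Aes, Gpr177, Wisp1, Wisp2 and Cyr61 had no match. Scripts (Python 3.11.15, pandas 2.3.3) were tested on simulated data. Positions are from GENCODE M21 (GRCm38, that is mm10), promoter windows from RefSeq.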

Additional observations from a re-analysis of the deposited data

How the results depend on the processing

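With 1 library per genotype, no replicate could be left out. No paired analysis was possible because each genotype has 1 library. Counts of the Wnt pathway genes ran from 7 to 12 higher and from 13 to 18 lower over the pseudocounts of 0.1 and 0.5, no filter, a filter of 5 FPKM, the 3 scalings and rows kept apart by gene ID, all within 1.5 times of the 10 and 16 given. Their median log2 ratio ran from -0.20 to 0.01 and so crossed 0 with the filter of 5 FPKM. The fold rule moves counts by construction. At 4-fold, 2 Wnt pathway genes were higher and 5 lower, 483 and 311 of all genes, and 6 and 7 in the other pathway lists. At 1.5-fold, 14 Wnt pathway genes were higher and 21 lower, 3063 and 2888 of all genes, and 31 and 26 in the other pathway lists.

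No gene changed sign after passing the 2-fold rule. Fzd5, Lrp5 and Wnt9a fell just under it with both libraries scaled to a smaller common FPKM sum and with upper quartiles set equal. The former scaling barely shifts the libraries against each other, as their sums were near equal, and acts mainly as a larger pseudocount. Fzd3, Fzd8 and Wnt2b passed the 2-fold rule with pseudocounts of 0.1 and 0.5, Wnt7a with 0.1, and Fzd3 with upper quartiles set equal.

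Depth limits the lowest values: Sfrp5 in d/d rests on about 4 fragments and Dkkl1 in f/f on about 6.4.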
